A study of Mus musculus with 4 samples.

Results

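The genes examined were 10 genes of macrophages and their lineage, taken as a named list (Csf1r, Adgre1, Cd68, Ptprc, Spi1, Fcgr1, Mrc1, Lyz2, C1qa and C1qb) from the 21755 protein-coding genes of the GENCODE annotation of mm10 on the autosomes and the X chromosome, and all 10 were found there by symbol. They were followed in ATAC-Seq of heart nuclei sorted as GFP- or GFP+, to see which of the sorted populations held peaks of myeloid nuclei. ATAC-Seq marks accessible DNA by where the Tn5 transposase inserts adapters. Both populations came from whole hearts of male NuTRAP/Cdh5-Cre mice on the C57BL/6 background, 8 to 12 weeks old, with 2 libraries per population and 100 to 50000 nuclei per reaction. NuTRAP is a Cre-dependent reporter that tags ribosomes with GFP, and the nuclei were sorted by their GFP signal. GFP- and GFP+ nuclei shared the same animals' genotype and the same gate for single, non-dividing nuclei with a 2n DNA content. Cre was driven by the promoter of Cdh5, the gene of the endothelial junction protein VE-cadherin. Such a transgene marks descent and not only present expression, so blood cells that arise from embryonic endothelium can carry the label too.

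The authors deposited 1 peak list per population, called from both of its libraries together, so there was no replicate check, and every difference below is between 2 lists with no p-value. The GFP- list had 78912 peaks and the GFP+ list 65008, of similar length (median 469 and 459 bp). Each peak was given its rank, the percentile from 0 to 100 of its area within its own list, the area being the value deposited for the peak as a whole. Because the lists differ in length, a peak at the same position from the top has a higher rank in the longer GFP- list. Comparisons of ranks were therefore repeated with the GFP- list cut to its 65008 peaks of largest area, an alternative called the cut list, used for most of these comparisons after seeing the data, that leaves out GFP- peaks below rank 17.6. Peaks that overlapped by at least 1 bp were called shared, which held for 69.7% of GFP- and 86.6% of GFP+ peaks. The labels were checked on marker genes: all 10 endothelial markers had a start peak in the GFP+ list against 6 in the GFP- list, with Cdh5 at rank 85.3 in GFP+ and 18 in GFP-, and 9 of 10 fibroblast markers had one in GFP- against 2 in GFP+. All 8 cardiomyocyte markers had a start peak in both lists. In such bulk lists fewer nuclei of a type and less accessible nuclei of that type cannot be told apart.

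Macrophages are phagocytes of the innate immune system, and the adult heart holds resident macrophages between its muscle cells as well as cells that arrive as blood monocytes. Their survival depends on colony-stimulating factor signalling through the receptor encoded by Csf1r, and their gene programme is set by PU.1, an ETS-family factor encoded by Spi1 that binds promoters and enhancers together with C/EBP, RUNX, AP-1 and IRF factors. Chromatin at the starts of highly expressed lineage genes is usually open in the cells that use them and closed elsewhere.

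Few of the macrophage genes had a peak at a start in either population. A start peak was one that overlapped the start of any protein-coding transcript of the gene by up to 250 bp to either side. Of the 10 genes, 2 had a start peak in the GFP- list (20%, with 5.67 to 51.0% as its Wilson 95% interval), while 60.9% of the protein-coding genes had one. In the GFP+ list 1 of 10 had one (10%, 1.79 to 40.4%), against 58.8% of all. Intervals here cover counting error only. Cd68 had a start peak in both lists, a pattern of 57.9% of all genes. C1qb had one in the GFP- list alone, as had 2.96% of all genes. No member had one in the GFP+ list alone, a count of 0 of 10 that allows a share of up to 30%, beside 0.910% of all genes. The other 8 (Csf1r, Adgre1, Ptprc, Spi1, Fcgr1, Mrc1, Lyz2 and C1qa) had none in either list, as had 38.2% of all genes. For these 8 the distance from a protein-coding start to the nearest GFP- peak ran from 552 bp at Spi1 to 45.9 kb at Lyz2, and to the nearest GFP+ peak from 339 bp at Spi1 to 111 kb at Fcgr1.

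Cd68 encodes the lysosomal glycoprotein macrosialin, a common histological marker of phagocytes. Its start on chromosome 11 had a GFP- peak at chr11:69665989-69666549 with an area of 462, rank 31.8, and a GFP+ peak at chr11:69665585-69666291 with an area of 305, rank 16.8. The pair overlapped by 303 bp, and the GFP- summit lay 50 bp before the start while the GFP+ summit lay 107 bp after it, in exon 1. In the cut list the GFP- peak had rank 17.2, beside 16.8 in GFP+. Both peaks were weak for a start: the median rank of start peaks over all genes was 90.5 in GFP- and 89.4 in GFP+. Both also missed the stricter minimum of 4 for the −log10 p-value at the summit (3.92 in GFP- and 3.38 in GFP+). The RefSeq promoter of Cd68 (GRCm38.p6, chr11:69666121-69666420, minus strand) is shown because both peaks overlap it. The GFP- summit lay inside it and the GFP+ summit outside. Capitals mark an AP-1 word (TGANTCA, here at 2 positions), a C/EBP word (TTGCNNAA) and an ETS-IRF word (GGAANNGAA, here on the opposite strand). The 200 bp around the GFP- summit held each of these words, and the 200 bp around the GFP+ summit held none of them.
Cd68 promoter: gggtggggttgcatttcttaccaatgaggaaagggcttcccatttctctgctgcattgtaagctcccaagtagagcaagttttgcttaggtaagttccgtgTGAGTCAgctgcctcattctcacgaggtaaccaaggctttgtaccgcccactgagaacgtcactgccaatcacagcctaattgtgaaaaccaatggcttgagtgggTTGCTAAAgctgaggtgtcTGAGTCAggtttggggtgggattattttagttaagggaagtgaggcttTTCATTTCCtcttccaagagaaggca

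C1qa and C1qb encode the A and B chains of C1q, which starts the classical complement pathway, and lie beside C1qc in a cluster on chromosome 4. The start of C1qb carried a GFP- peak at chr4:136886092-136886428 with an area of 335 and rank 19.5 (2.28 in the cut list), with its summit 33 bp before the start, and the GFP+ list had no peak within 7.70 kb of it. The start of C1qa had no peak in either list. The RefSeq promoter of C1qb (GRCm38.p6, chr4:136886151-136886450, minus strand) is shown because it lies under the single start peak of a member that was found in 1 list alone. Capitals mark an ERG/FLI1 word (CAGGAAGT, here on the opposite strand), an ETS word that differs from the PU.1 word GAGGAAGT in a single letter.
C1qb promoter: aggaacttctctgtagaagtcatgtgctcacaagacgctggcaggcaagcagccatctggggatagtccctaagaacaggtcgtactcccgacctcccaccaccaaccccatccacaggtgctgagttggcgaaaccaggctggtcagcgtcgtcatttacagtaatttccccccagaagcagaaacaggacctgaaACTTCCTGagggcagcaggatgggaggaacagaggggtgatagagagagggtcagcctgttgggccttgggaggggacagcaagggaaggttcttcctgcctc

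Around the cluster the peaks were small. A shared peak 4.69 kb after the start of C1qa, 1051 bp from the start of C1qc, had rank 22.8 in GFP- and 28.3 in GFP+. A second shared peak 25.9 kb before C1qa had rank 38.1 in GFP- and 33.2 in GFP+. In the cut list these GFP- peaks fell to 6.33 and 24.9, both under the GFP+ ranks. GFP- peaks without a GFP+ partner lay 8.46 kb before C1qa (rank 12.9) and 9.01 kb after the start of C1qb (rank 8.45), both too low in rank for the cut list. A GFP+ peak without a GFP- partner lay 33.0 kb before C1qa, in intron 14 of Epha8, at rank 1.98. All of these peaks were below rank 40. The remaining peaks of the C1qb flank were shared and lay at the start of Ephb2 (rank 77.9 in GFP- and 66.6 in GFP+) and 5302 bp from it (rank 54.3 and 39.5).

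**Figure D1:**
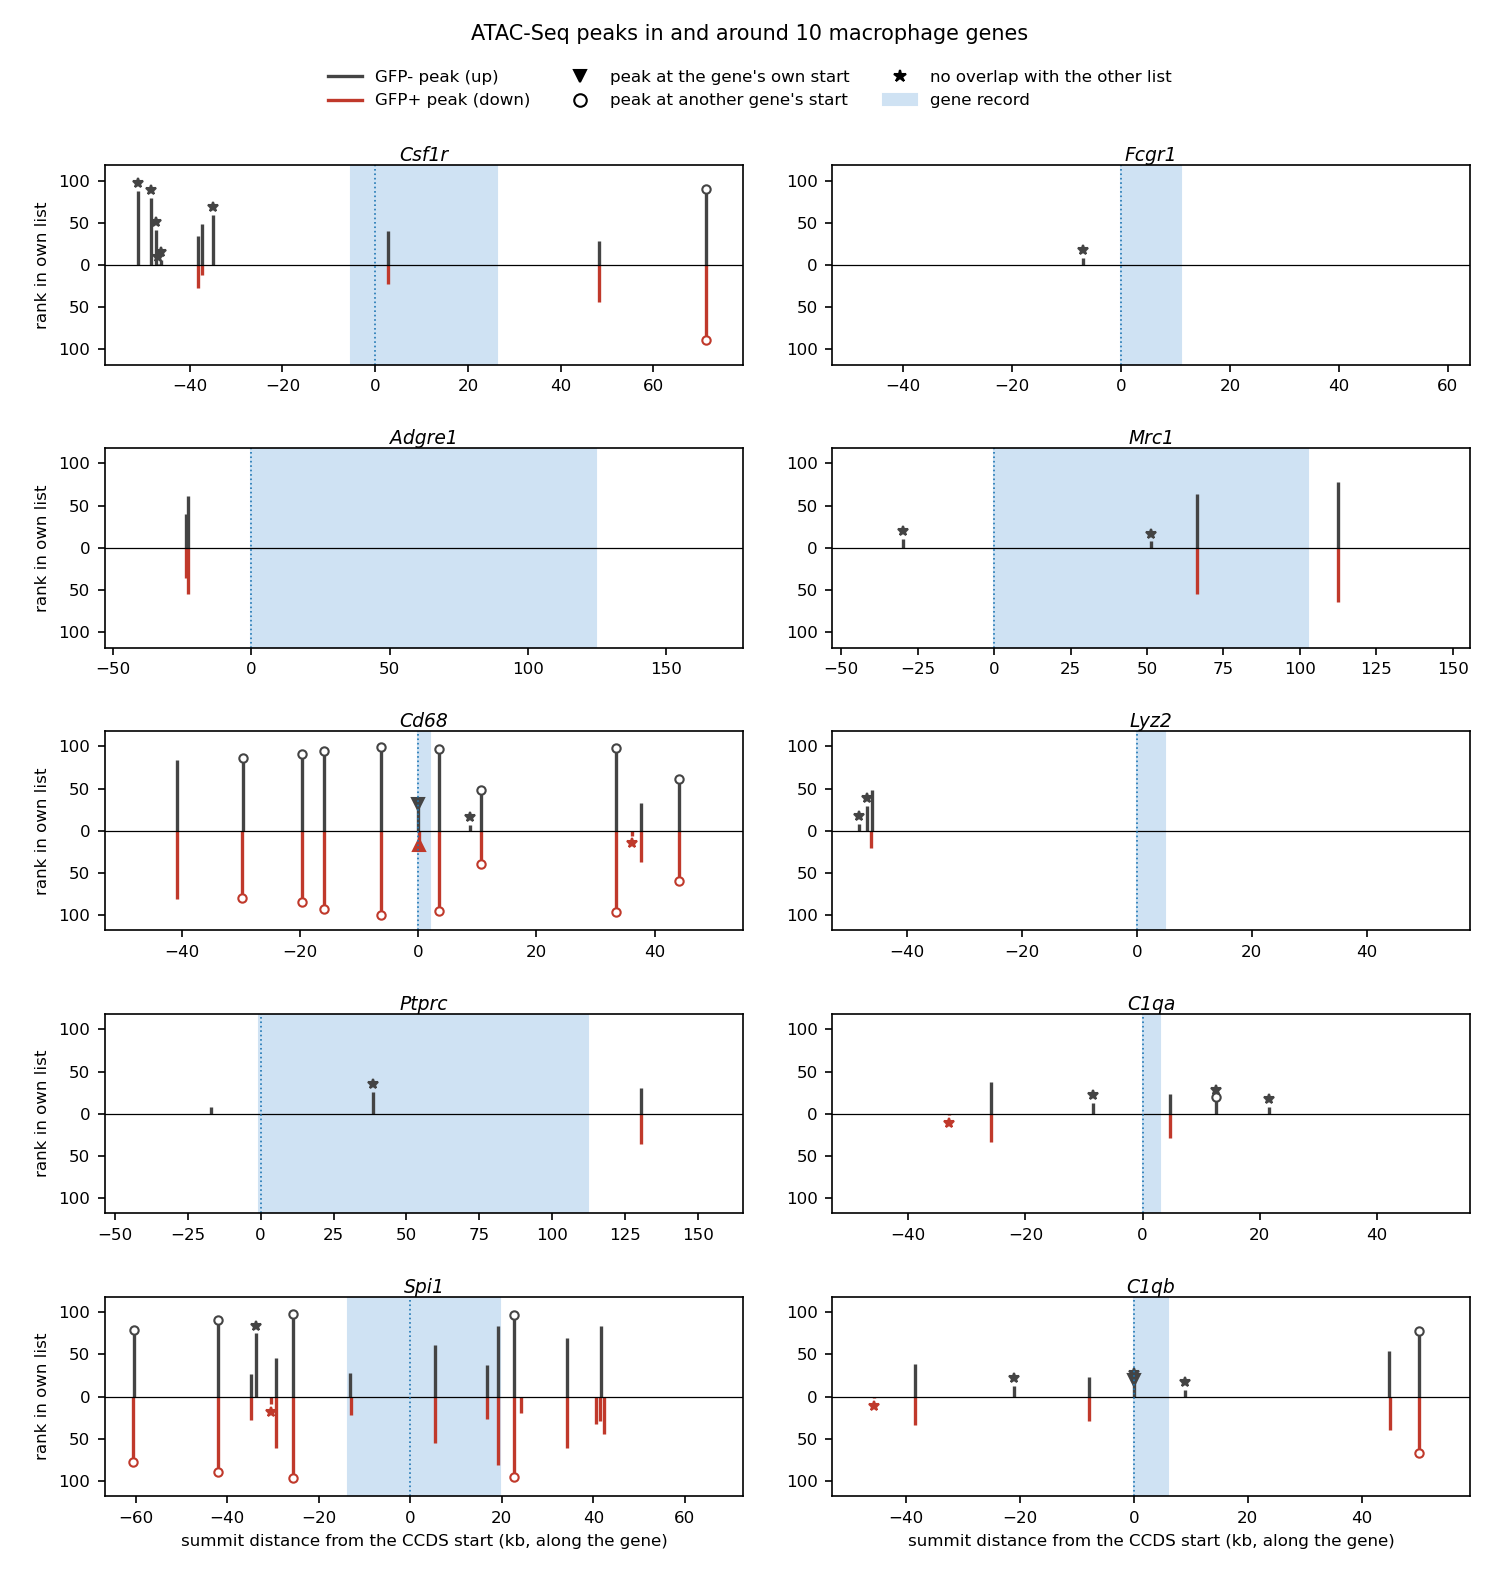
Peaks in and around each of the 10 macrophage genes. The x axis gives the distance in kb of each summit from the start of the gene's CCDS transcript, along the direction of the gene, and the length of each line is the peak's rank within its own list, drawn upward for GFP- and downward for GFP+. Shading is the gene record, triangles are peaks at the gene's own start, open circles peaks at starts of other genes and stars peaks without overlap in the other list. Tall lines are mostly at starts of neighbouring genes, as around Cd68 and Spi1, while lines in the shaded records are few. The GFP+ peak before Ptprc, at rank 0.841, is too short to see.

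Ptprc encodes CD45, the tyrosine phosphatase on the surface of all nucleated blood cells, and it marks leukocytes of any lineage. Its record of 112848 bp held 1 GFP- peak and no GFP+ peak. The GFP- peak lay in intron 2 of Ptprc-203, 38.7 kb after the start (chr1:138136456-138136757, area 400, rank 26.3). Outside the record, a shared peak 17.0 kb before the start was at rank 8.37 in GFP- and 0.841 in GFP+, near the bottom of both lists. A shared peak 131 kb after the start, beyond the end of the gene, had rank 30.7 in GFP- and 36.2 in GFP+. Lyz2 encodes lysozyme, an enzyme that cleaves bacterial cell walls and is made in large amounts by macrophages and neutrophils. No peak of either list lay within 45 kb of it, and the 3 GFP- peaks 46.1, 46.9 and 48.4 kb before its start were nearer to the start of Cpsf6. The closest of them was shared, at rank 48.5 in GFP- and 20.7 in GFP+, and the others, at ranks 29.6 and 8.08, had no GFP+ partner. The 200 bp around the summits of the best-ranked unshared GFP- peaks away from starts at these genes are shown as sequence found in the GFP- list alone (GRCm38.p6, plus strand, chr1:138136514-138136713 and chr10:117329166-117329365). Capitals mark an ETS-IRF word in each and a RUNX word (TGTGGTT) in that of Ptprc. The windows of the best-ranked unshared GFP- peaks away from starts in the Spi1 and C1qa regions, at ranks 74.8 and 12.9, held none of the 6 words searched.
Ptprc intron 2, GFP- only: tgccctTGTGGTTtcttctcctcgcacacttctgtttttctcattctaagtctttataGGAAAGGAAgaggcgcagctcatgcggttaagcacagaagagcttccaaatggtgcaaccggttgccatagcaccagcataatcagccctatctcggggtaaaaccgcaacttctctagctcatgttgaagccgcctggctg
Lyz2 upstream, GFP- only: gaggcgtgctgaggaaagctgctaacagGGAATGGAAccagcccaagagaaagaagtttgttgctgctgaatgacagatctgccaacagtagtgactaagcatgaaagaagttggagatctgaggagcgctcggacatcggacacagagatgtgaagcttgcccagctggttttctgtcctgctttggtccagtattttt

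Adgre1, Fcgr1 and Mrc1 are used to define macrophages by their surface. Adgre1 encodes the adhesion receptor F4/80, and its record of 124837 bp held no peak of either list. Its only peaks were 2 shared intergenic ones, 23.7 kb before the start (rank 40.5 in GFP- and 36.2 in GFP+) and 22.8 kb before it (rank 61.3 and 54.5). In the cut list both GFP- ranks fell under those of GFP+, that of the weaker pair to 27.8, so the order of the populations turned at both. Fcgr1 encodes CD64, the high-affinity receptor for IgG. Its single peak within 50 kb was a GFP- peak without a GFP+ partner 6981 bp before the start (chr3:96300603-96301069), at rank 8.84. Mrc1 encodes the mannose receptor CD206, typical of resident heart macrophages. A shared peak in intron 15 of Mrc1 had rank 64.2 in GFP- (chr2:14295027-14295877) and 54.9 in GFP+ (chr2:14295334-14295993), with an overlap of 544 bp and a GFP- rank of 56.6 in the cut list, still above that of GFP+, and it was the best-ranked peak whose nearest start was that of a member in the GFP- list. GFP- peaks without a GFP+ partner lay in intron 11 of Mrc1 (rank 7.68) and 29.8 kb before its start, in intron 3 of Tmem236 (rank 11.1). A shared peak 113 kb after the start, downstream of the gene, had rank 78.3 in GFP- and 64.4 in GFP+.

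Csf1r encodes the receptor for the macrophage growth factors CSF1 and IL-34. It lies on chromosome 18, where 1 shared peak fell in its record, in intron 1 of Csf1r-202 and 2.71 kb after that transcript's start. The peak had an area of 567 and rank 39.7 in GFP- (chr18:61108446-61108864) and an area of 350 and rank 22.5 in GFP+ (chr18:61108378-61108719), and the pair overlapped by 274 bp. In the cut list the GFP- rank was 26.8, still above the 22.5 of GFP+. Intronic sequence just downstream of the macrophage start of Csf1r is known to act as an enhancer in myeloid cells, and whether this peak is that element was not examined. The 50 kb upstream of Csf1r reach into Pdgfrb, a receptor gene of fibroblasts and mural cells. All 6 GFP- peaks of the Csf1r region without a GFP+ partner lay in introns of Pdgfrb, at ranks from 0.731 to 87.6, and the start of Pdgfrb itself had a peak in the GFP- list alone, at rank 83.0. Without those 6, the Csf1r region held 5 GFP- and 5 GFP+ peaks, all shared.

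Spi1 encodes PU.1. It had no start peak, but a shared peak began 552 bp (GFP-) and 339 bp (GFP+) after the start of Spi1-204, the transcript that begins farthest upstream, at rank 27.8 in GFP- and 22.1 in GFP+. Around the start of the CCDS transcript of Spi1, 13.1 kb after that peak's summit, no peak of either list lay within 5246 bp. In intron 2 of that transcript, a shared peak 5.50 kb after the start had rank 60.9 in GFP- and 54.9 in GFP+, and a second, 16.7 kb after it, had rank 37.2 and 27.0. The last exon, exon 5, carried a shared peak of rank 83.4 in GFP- and 80.6 in GFP+, whose nearest protein-coding start, 2948 bp away, was that of Mybpc3, the cardiomyocyte gene of cardiac myosin-binding protein C. The start of Mybpc3 ranked 97.3 in GFP- and 95.6 in GFP+. All 4 peaks in the Spi1 record were thus shared. Their order between the populations rested on the length of the lists: each had the higher rank in GFP- in the full lists and in GFP+ in the cut list, where the GFP- ranks were 12.4, 52.5, 23.8 and 79.9.

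Over the 10 regions, counted as gene records with 50 kb to each side, there were 56 distinct GFP- and 45 distinct GFP+ peaks, and 5 GFP- and 3 GFP+ peaks fell in the overlapping regions of both C1qa and C1qb. More GFP- than GFP+ peaks were present in 7 regions (Csf1r 11 and 5, Ptprc 3 and 2, Fcgr1 1 and 0, Mrc1 4 and 2, Lyz2 3 and 1, C1qa 5 and 3, C1qb 7 and 5), a pattern of 45.5% of all protein-coding genes. The counts were equal at Adgre1 (2 and 2) and Cd68 (12 and 12), and more GFP+ peaks were present at Spi1 (13 and 16), as at 19.0% of all genes. With the cut list, GFP- had more peaks in 2 regions (Csf1r and Lyz2), beside 24.7% of all genes. The counts were equal in 6 regions, beside 38.1%, and GFP+ had more in 2 (Cd68 and Spi1), beside 37.3%. In most of the regions with a surplus of GFP- peaks, that surplus was thus seen in the full lists only. In the full lists, the median was 4.5 GFP- and 2.5 GFP+ peaks per region, beside 6 and 5 over all genes. A peak of any kind touched the gene record of 6 members in GFP- and 4 in GFP+, against 69.4% and 67.5% of all genes.

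Of the 56 GFP- peaks, 39 overlapped a GFP+ peak (69.6%, 56.7 to 80.1%), a share close to the 69.7% of the whole list. Of the 45 GFP+ peaks, 42 overlapped a GFP- peak (93.3%, 82.1 to 97.7%), beside 86.6% of the list. The unshared peaks were 17 in GFP- and 3 in GFP+, and 8 of the 17 were in the cut list. Many region peaks belonged to neighbours, with 14 GFP- and 14 GFP+ peaks at starts of other protein-coding genes, among them Eif4a1, Mpdu1, Fxr2 and Senp3 near Cd68 and Slc39a13, Psmc3 and Rapsn near Spi1. Away from starts, 24 of 40 GFP- peaks were shared (60%, 44.6 to 73.7%, beside 64.8% of all such peaks) and 27 of 30 GFP+ peaks (90%, 74.4 to 96.5%, beside 83.8%). Where the nearest start was also that of a member, 14 GFP- and 9 GFP+ peaks remained. Of these 14, 9 were shared (64.3%, 38.8 to 83.7%), close to the 64.8% of all GFP- peaks away from starts. The 5 without a GFP+ partner lay at Ptprc, Fcgr1, Mrc1, C1qa and C1qb, with ranks from 7.68 to 26.3. Of these 5, 1, that in intron 2 of Ptprc, was in the cut list. All 9 GFP+ peaks had a GFP- partner, beside 83.8% of all GFP+ peaks away from starts. A count of 0 unshared of 9 allows a share of up to 33.3%. At each of the 3 unshared GFP+ peaks (ranks 1.98, 5.96 and 9.0) the nearest start was that of another gene, Epha8, Fxr2 or Slc39a13.

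The order of shared peaks between the populations depended on the length of the lists. Over the 39 shared GFP- peaks of the regions the median rank difference, GFP+ minus GFP-, was -4.93 (interval -7.53 to -1.68 from order statistics), with 7 pairs higher and 32 lower in GFP+, beside a median of -1.69 over all shared GFP- peaks. With the cut list the median over the 38 pairs left was 0.32 (-1.03 to 3.18), with 21 pairs higher and 17 lower in GFP+, beside 1.78 over all. The 9 shared peaks away from starts whose nearest start was a member's had a median of -6.04 (-9.39 to -4.29). All shared GFP- peaks away from starts had a median of -2.52. With the cut list the medians were 5.31 (-4.28 to 20.3) over 8, 6 of them higher in GFP+, and 3.53 over all such peaks. No direction can therefore be given for the shared peaks of the macrophage genes. At the starts of Cd68 and C1qb the difference was -15.0 and -19.5 in the full lists, with C1qb set to 0 in GFP+, beside a median of -0.812 over all genes with a start peak. With the cut list it was -0.44 and -2.28, beside 0.42 over all genes. Peaks of one region share neighbours and are not independent.

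**Figure D2:**
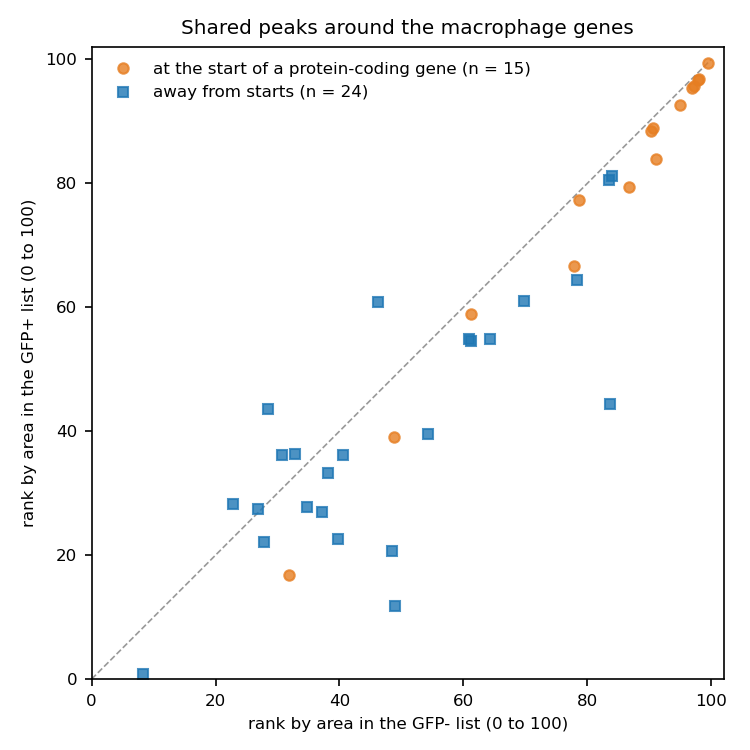
Ranks of the 39 shared peaks in the regions of the macrophage genes, with the rank in the full GFP- list on the x axis and that of the overlapping GFP+ peak on the y axis. Each point is a pair of overlapping peaks, circles at a start of a protein-coding gene and squares away from starts, and the dashed line marks equal ranks. 32 points lie below the line and 7 above it, and with the cut GFP- list 17 of 38 would lie below and 21 above.

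The 10 genes were set beside wider lists of the same cells. Among 18 further markers of resident macrophages, 6 had a start peak in both lists, beside 57.9% of all genes, and none in a single list. The 6 were Cbr2, Gas6, Lgmn, Lyve1, Mertk and Pf4. Their median rank difference, GFP+ minus GFP-, was -2.12 (interval -10.9 to 1.64) and 1.65 with the cut list, so that no direction held, with examples in Mertk, a receptor for dying cells, with 95.1 in GFP- and 93.3 in GFP+, and Pf4, a chemokine gene, with 61.4 and 63.0. Lyve1, a hyaluronan receptor of lymphatic endothelium and of a subset of macrophages, had 36.8 and 25.8. Several of these genes are also used outside macrophages. The other 12, C1qc, Cx3cr1, Cd163, Timd4, Folr2, Trem2, Aif1, Mpeg1, Ctss, F13a1, Ms4a7 and Siglec1, had a start peak in neither list.

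Of 16 monocyte and dendritic cell genes, 4 had a start peak in GFP- and 3 in GFP+, beside 60.9% and 58.8% of all genes. Cd74, the invariant chain of MHC class II, had one in the GFP- list alone, at rank 11.2, too low for the cut list. Cd14, a receptor for bacterial lipopolysaccharide, had rank 73.0 in GFP- and 20.8 in GFP+, and 67.3 in the cut GFP- list, so that its lower rank in GFP+ did not rest on list length. The class II gene H2-Aa was at 55.7 (46.2 in the cut list) and 42.4, and H2-Ab1 at 76.1 and 74.6, an order that turned with the cut list (71.0). Of 15 genes used across leukocytes, 4 had a start peak in GFP- and 2 in GFP+, beside the same shares of all genes. Coro1a, an actin regulator of leukocytes, and Hcls1, a signalling adaptor of blood cells, had one in GFP- alone, at ranks 43.4 and 5.90, and that of Coro1a was also in the cut list, at 31.3. Ikzf1, a lymphoid and myeloid factor, was at 56.4 in GFP- and 47.5 in GFP+, and Lcp1, an actin bundler, at 75.8 and 81.6 with a peak that also lay on the start of Lrrc63. Across the macrophage, monocyte and pan-leukocyte lists, 0 of 49 genes had a start peak in the GFP+ list alone. That count allows a share of up to 6.12%, beside 0.910% of all genes, and does not set the lists apart. In the GFP- list alone, Cd74, Coro1a and Hcls1 had one, beside 2.96% of all genes.

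Most of the 14 myeloid transcription factors listed here, which leave out Spi1, had start peaks, unlike most of the surface and effector genes. Of the 14, 12 had a start peak in both lists, beside 57.9% of all genes. All 12 ranked lower in GFP+ in the full lists, beside 9584 of the 13437 protein-coding genes with a start peak, and 11 of 12 with the cut list, beside 5004 of 13267. Their median difference was -1.36 (interval -7.42 to -0.783), an interval that holds the median of -0.812 over all genes, and -1.04 with the cut list (-6.64 to -0.11), beside 0.42 over all genes. Most were open at high rank in both populations, as Cebpb (98.5 and 98.2) and Klf4 (99.7 and 98.9), factors that other heart cells use as well. The differences were wide at Irf5, an interferon regulatory factor of myeloid cells, with rank 71.4 in GFP- (65.3 in the cut list) and 7.41 in GFP+, and at Batf3, a dendritic cell factor, with 44.3 (32.4) and 24.1. Tfec and Spic, factors largely restricted to macrophages, had no start peak in either list. Spi1, counted above with the macrophage genes, had none either. Whether the contrast with surface and effector genes goes with the class of gene or with use outside myeloid cells was not tested. Of the 5 genes of the colony-stimulating factor axis, the ligand gene Csf1 alone had a start peak, at rank 94.3 in GFP- and 92.1 in GFP+, and Il34, Csf2ra, Csf2rb and Csf3r had none.

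**Figure D3:**
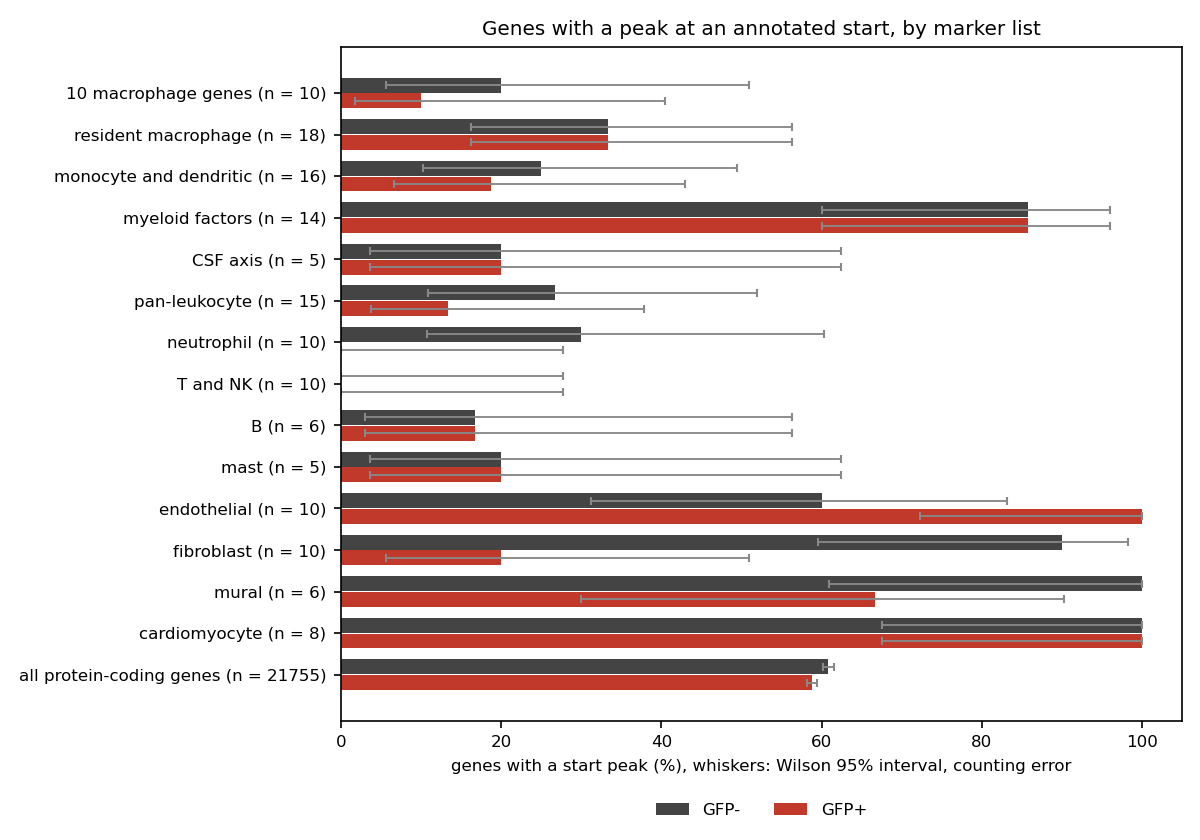
Share of genes with a start peak in the GFP- list (dark bars) and the GFP+ list (red bars), in percent on the x axis, for the 10 macrophage genes, for each marker list with its number of genes, and for all protein-coding genes. Whiskers are Wilson 95% intervals of counting error. The macrophage genes (20% and 10%) sit below all protein-coding genes (60.9% and 58.8%), and the endothelial (60% and 100%) and fibroblast (90% and 20%) lists show the sort.

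Short words for myeloid factors were counted in the 200 bp around each summit, on both strands. The words were GAGGAAGT for PU.1, CAGGAAGT for ERG/FLI1 (ETS factors) and TTGCNNAA for C/EBP. The others were TGTGGTT for RUNX, TGANTCA for AP-1 and GGAANNGAA for a composite of ETS and IRF. The ETS-IRF word can overlap either ETS word, and a match is a description of letters and not a bound site. Of the 17 unshared GFP- peaks of the regions, 0 held the PU.1 word, which allows a share of up to 17.6%, beside 2.29% of all 23923 unshared GFP- peaks. Of the shared peaks of the regions, 0 of 39 in GFP- and 1 of 42 in GFP+ held it, beside 1.91% and 1.87% of all shared peaks of those lists. The peak with it had rank 32.8 and lay downstream of Mybpc3, 40.6 kb after the CCDS start of Spi1. The ETS-IRF word was in 6 of 17 (35.3%, 17.3 to 58.7%), beside 7.03% of all unshared GFP- peaks, and 3 of the 5 whose nearest start was a member's and that lay away from starts held it. These 6 lay in intron 2 of Ptprc (rank 26.3), before Lyz2 but nearest to the start of Cpsf6 (29.6), and before Fcgr1 (8.84). The others lay in intron 3 of Tmem236 before Mrc1 (11.1), in the C1q cluster (8.45) and inside Pdgfrb upstream of Csf1r (6.19). Only those of Ptprc and Lyz2 were in the cut list, which leaves out GFP- peaks below rank 17.6. The C/EBP and AP-1 words were in 0 of 17 each, which allows up to 17.6%, beside 13.2% and 14.8% of all unshared GFP- peaks. The ERG/FLI1 word was in 3 of 17, at the start of C1qb, before Fcgr1 and inside Pdgfrb.

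In the lists as a whole, the PU.1 word was in 3.81% of unshared GFP+ peaks (3.43 to 4.23%, of 8720), above the 2.29% (2.11 to 2.49%) of unshared GFP- peaks. The ERG/FLI1 word had the same order, with 5.92% and 3.23%. The C/EBP word was in 8.29% of unshared GFP+ and 13.2% of unshared GFP- peaks, and the AP-1 word in 8.68% and 14.8%. Thus the ETS words were more common in unshared GFP+ peaks and the C/EBP and AP-1 words in unshared GFP- peaks, by more than the counting error. Of the RefSeq promoters of 300 bases, 6 members had an entry (Cd68, C1qb, Fcgr1, Lyz2, Mrc1 and Ptprc), and none held the PU.1 word, beside 3.20% of all 32851 promoters. The ERG/FLI1 word was in 4 of the 6, at C1qb, Lyz2, Mrc1 and Ptprc, beside 3.33% of all.

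**Figure D4:**
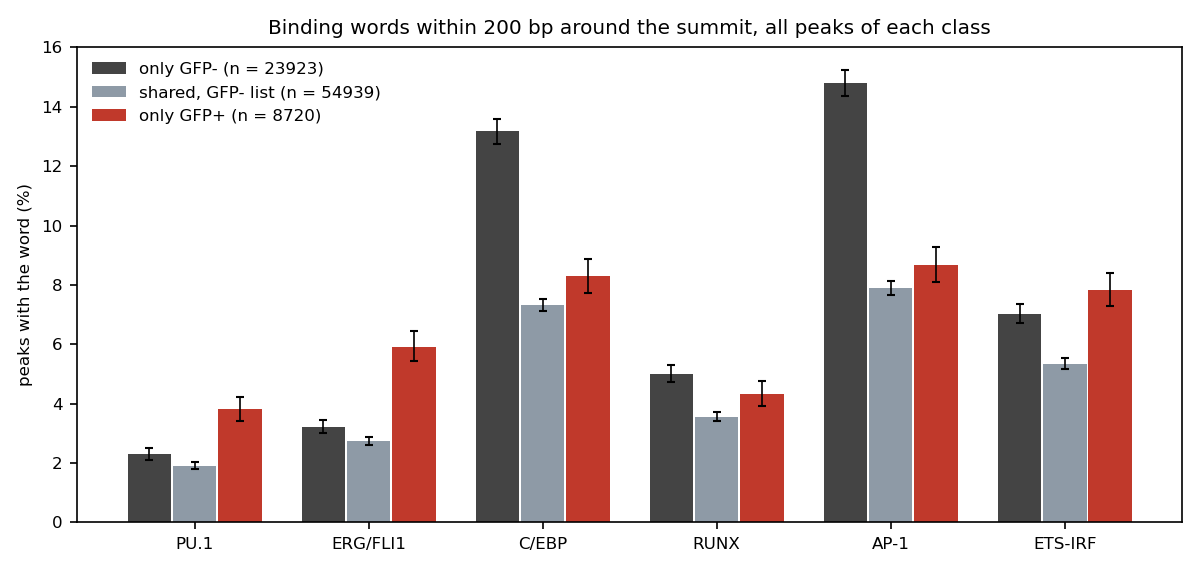
Share of peaks, in percent on the y axis, with each of the 6 words in the 200 bp around the summit, for unshared GFP- peaks (dark), shared peaks of the GFP- list (grey) and unshared GFP+ peaks (red). Whiskers are Wilson 95% intervals of counting error. The PU.1 and ERG/FLI1 words are most common in unshared GFP+ peaks, and the C/EBP and AP-1 words in unshared GFP- peaks.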

How the data were processed

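ATAC-Seq libraries of GFP- and GFP+ heart nuclei (2 each) were grouped by their labels. The authors used fastp for trimming, bowtie2 for mapping to mm10, samtools for a quality filter and Picard for duplicates, then sampled each library down to a common read number and ran Genrich on both libraries of a population together. The deposited area is a signal summed over each peak, the deposited −log10 p-value belongs to the summit, and the deposited score, limited to 1000, was not ranked. The summit offset, also deposited, placed the summits. Downsampling evens depth, but read counts were not analysed here.

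Genes came from GENCODE M21, sequence from GRCm38.p6. Genes named besides the 10 are neighbours whose start a flank peak overlapped, hosts of described peaks, and wider-list genes, with those found in 1 list always named. The 10 genes, the wider lists and the alternatives were chosen with earlier results of these data known. Intervals were Wilson 95% for shares and order statistics for medians. Overlap, start and word steps were tested on simulated data. Calculations ran in Python 3.11.15 (pandas 2.3.3, numpy 2.4.6) and plots in matplotlib 3.10.9.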

Additional observations from a re-analysis of the deposited data

How the results depend on the processing

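No paired analysis was possible because each population has 1 list made from both replicates, and for the same reason no replicate could be left out. With a minimum of 4 for the −log10 p-value at the summit, 1 member had a start peak in GFP- (C1qb) and 0 in GFP+, the start rank difference became -9.15 over 1 gene, and 100% of GFP+ region peaks were shared. Starts widened to 1000 bp to each side gave 2 members with a start peak in GFP+, as Spi1 gained one in both lists. The start rank difference of -17.3 became -1.36 with the GFP- list cut to the length of the GFP+ list, -14.0 with ranks by the summit −log10 p-value and -12.1 with ranks by area per bp. The cut list had 82.6% of GFP- region peaks shared. In comparisons with it that were chosen after seeing the data, the median rank difference of shared peaks reversed, from -4.93 to 0.32 in the regions and from -6.04 to 5.31 near a member's start. Pan-leukocyte genes with a start peak numbered 2 in GFP- and 1 in GFP+ with the start at the end of the gene record, and 4 in GFP+ with the starts of all transcripts. With 20 kb flanks there were 27 GFP- and 22 GFP+ region peaks, and with 100 kb flanks 101 and 80. An overlap of at least 50% of both peaks left 80% of GFP+ region peaks shared. Kept to peaks whose nearest start was a member's, an alternative chosen after seeing the data, there were 16 GFP- and 10 GFP+ peaks, with 100% of the GFP+ peaks shared. The causes were not tested, except that longer flanks and fewer peaks change counts, and cutting the longer list lowers its ranks, by construction. Of 99 alternatives of the main values, 77 stayed within their limits, 20 moved and 2 changed direction. Ranks near 0 lie close to the smallest area called, so that presence or absence of the weakest peaks depends on that threshold.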

Other observations

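Other blood lineages were examined by the same start peaks. Of 10 neutrophil genes, 3 had a start peak in the GFP- list, beside 60.9% of all protein-coding genes. In the GFP+ list 0 had one, which allows a share of up to 30%, beside 58.8% of all genes. The 3 thus had one in the GFP- list alone, as had 2.96% of all genes. They were Camp, an antimicrobial peptide gene (rank 82.0), Mmp8, a neutrophil collagenase gene (rank 52.3), and Mpo, the gene of myeloperoxidase (rank 30.3). In the GFP- list cut to the length of the GFP+ list their ranks were 78.2, 42.2 and 15.4. None of these peaks lay on the start of another protein-coding gene, and the nearest such start was 16575, 12940 and 13287 bp away. S100a8, S100a9, Ly6g, Elane, Ngp, Retnlg and Cxcr2 had none in either list. Of 10 T and NK cell genes, 0 had a start peak in either list, and 38.2% of all genes likewise had none. Of 6 B cell genes, Pax5 had one in both, at rank 67.8 in GFP- and 73.4 in GFP+, and of 5 mast cell genes Kit, which is also used by other cells, had one in both, at 63.7 and 76.2. Of 6 mural cell genes, 6 had a start peak in GFP- and 4 in GFP+, beside 60.9% and 58.8% of all genes. Acta2 (rank 27.7) and Rgs5 (rank 16.2) had one in GFP- alone, as had 2.96% of all genes. With the cut list Acta2 fell to rank 12.2, and the peak of Rgs5 was too low in rank to be kept.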
